A study of Caenorhabditis elegans with 2 samples.

Results

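Nuclear hormone receptor genes of the nematode Caenorhabditis elegans were examined for peaks of PHP-3, a Hox protein of the posterior group. The 269 members were the protein-coding genes of the Ensembl WBcel235 annotation with a name of the form nhr followed by a number, out of 19973 protein-coding genes on the nuclear chromosomes. Chromatin immunoprecipitation and sequencing (ChIP-seq) had been run on whole L4 larvae, 48 hours of age, of strain RW12213, synchronised by bleaching and then starving the L1 larvae. The strain carries st12213[php-3::TY1::EGFP::3xFLAG], a CRISPR insertion at the php-3 gene on chromosome III, and an antibody against GFP recovered the chromatin. There was 1 group of 2 biological replicates, with no second condition. The lists therefore describe binding in 1 tagged strain at 1 stage, over all tissues of the animal at once, and read depth is unknown.

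Nuclear hormone receptors are transcription factors with a zinc-finger domain that binds DNA and a second domain that in many members binds a small lipid-like molecule. Nematodes have a much larger family than insects or vertebrates. Most worm members derive from an ancestor like the vertebrate receptor HNF4, many stand in tandem arrays on chromosome V, and only a few have a clear relative in both insects and vertebrates. Worm receptors with known roles act in fat and energy metabolism, detoxification, moulting and the development of epidermal, gonadal and neuronal cells.

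PHP-3 summits stood at receptor genes about as often as at protein-coding genes in general. A summit is the single position that the authors' lists mark inside a peak. The promoter window of a gene covered 1000 bp before and 200 bp after its outermost 5′ end in the annotation. Of 269 receptor genes, 24 (8.92%, exact binomial 95% interval 5.80 to 13.0) had a summit in that window in the larger series-wide list, against 7.95% of all protein-coding genes. With the gene body added, 35 receptor genes (13.0%, interval 9.23 to 17.6) had a summit, against 12.2% of all protein-coding genes. The other 234 had none. The intervals cover the counting of genes only. A share this near the background says nothing particular about the family, so the rest concerns which receptor genes carried summits, where, and how strongly.

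The sequences under the strongest promoter summits are shown first, because they hold the letters at the positions of highest signal. Each window covers the summit and 50 bp to each side, in ce11 coordinates and from the RefSeq genome of WBcel235, read 5′ to 3′ on the strand of the receptor gene. They are the strongest 8 whose windows touched no annotated UTR and no small RNA gene. The plus strand was read for nhr-68 (chrV:11573042-11573142), nhr-99 (chrV:474642-474742), nhr-35 (chrX:4532325-4532425), nhr-256 (chrV:1743614-1743714), nhr-203 (chrV:459630-459730) and nhr-132 (chrV:534278-534378). The minus strand was read for nhr-130 (chrV:483547-483647) and nhr-119 (chrII:2800918-2801018). Capitals mark, on either strand, the posterior Hox words (TTTATGA or TTTATGG or TTTACGA or TTTACGG or TTTATTA or TTTATTG or TTTACTA or TTTACTG), the GATA words (TGATAA and AGATAA), the E-box word CACGTG and the word GCGTCT. The last pair of words was chosen after the windows had been read. Words may overlap.
nhr-68: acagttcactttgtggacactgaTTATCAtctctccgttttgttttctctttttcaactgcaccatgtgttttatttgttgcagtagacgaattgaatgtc
nhr-99: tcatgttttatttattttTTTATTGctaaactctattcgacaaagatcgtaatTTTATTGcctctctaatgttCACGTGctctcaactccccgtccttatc
nhr-35: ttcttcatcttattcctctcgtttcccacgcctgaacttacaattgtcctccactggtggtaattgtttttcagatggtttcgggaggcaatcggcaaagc
nhr-256: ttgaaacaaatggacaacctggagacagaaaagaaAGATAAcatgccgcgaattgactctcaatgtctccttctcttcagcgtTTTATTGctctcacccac
nhr-130: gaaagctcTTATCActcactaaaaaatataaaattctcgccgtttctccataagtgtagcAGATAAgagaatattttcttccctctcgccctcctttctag
nhr-203: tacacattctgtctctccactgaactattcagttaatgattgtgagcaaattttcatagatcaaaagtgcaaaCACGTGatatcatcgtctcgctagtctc
nhr-132: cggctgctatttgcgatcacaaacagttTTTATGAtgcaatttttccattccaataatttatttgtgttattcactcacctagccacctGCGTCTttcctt
nhr-119: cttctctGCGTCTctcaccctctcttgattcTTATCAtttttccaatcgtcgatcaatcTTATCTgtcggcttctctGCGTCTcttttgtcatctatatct

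The second set holds the strongest gene body summit of each of the 5 receptor genes that led among those with a gene body summit only, in the same form. These are nhr-46 (chrIV:5756101-5756201, minus strand), nhr-97 (chrIV:9762910-9763010, plus strand), nhr-27 (chrX:12807027-12807127, minus strand), nhr-19 (chrII:9603599-9603699, minus strand) and nhr-173 (chrX:6656377-6656477, plus strand). All 5 summits lay in introns of the receptor genes.
nhr-46: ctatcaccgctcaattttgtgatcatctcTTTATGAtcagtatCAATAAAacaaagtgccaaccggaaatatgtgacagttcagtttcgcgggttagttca
nhr-97: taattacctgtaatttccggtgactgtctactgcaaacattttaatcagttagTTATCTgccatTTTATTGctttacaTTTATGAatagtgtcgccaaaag
nhr-27: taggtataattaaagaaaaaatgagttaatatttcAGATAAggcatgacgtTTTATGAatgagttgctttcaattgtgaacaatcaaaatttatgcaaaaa
nhr-19: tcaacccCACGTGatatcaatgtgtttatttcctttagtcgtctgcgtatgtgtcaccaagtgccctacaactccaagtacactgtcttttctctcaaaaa
nhr-173: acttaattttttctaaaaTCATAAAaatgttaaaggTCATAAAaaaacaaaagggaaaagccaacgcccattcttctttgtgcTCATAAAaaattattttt

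The strict posterior Hox word TTTATGA stood under most of the 5 intronic summits shown above, which were 1 per receptor gene. Of the 5 intronic windows above, 4 held it, in 1 copy at nhr-46, nhr-97 and nhr-27 and in 3 copies at nhr-173, where it reads TCATAAA on the printed strand. The strict words (TTTATGA or TTTATGG) were in 55 of the 343 summit windows outside promoters that had a signal of 194 or more, the lowest of these 5, and in 115 of the 1811 weaker ones (6.35%). The 5 were picked by signal and are few, so this is a description of named sites. Over all 21 gene body summits of receptor genes 4 windows (19.0%) held a strict word, and over the 24 promoter summits 1 window (4.17%), at nhr-132. All 3559 summits of the list gave 8.43%, and all 1405 promoter summits 9.25%.

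Other words at the promoter summits of receptor genes were in few windows, and their shares are given beside those of all promoter summits, with no test. The wider set of posterior Hox words, which includes the strict words and the TTTATTG pair at nhr-99, was in 5 of 24 windows (20.8%), against 26.6% of all promoter windows. With 100 bp to each side of the summit the order turned, at 45.8% against 42.8%. GATA words were in 11 of 24 (45.8%, against 37.7%), among them nhr-68, nhr-256, nhr-130 and nhr-119. The core word AGGTCA of nuclear receptor sites was in 1 window (4.17%, against 3.84%), at nhr-232, and TATAAA was in 3 (12.5%, against 10.8%), at nhr-130, nhr-123 and nhr-212. Among the words chosen after reading the windows, CACGTG was in 2 (8.33%, against 4.91%), at nhr-99 and nhr-203. GCGTCT was in 3 (12.5%, against 8.19%), with 2 copies at nhr-119. CTCTCT was in 6 of 24 (25%, against 10.2%), with 5 overlapping copies at nhr-107, and with 100 bp to each side at 33.3% against 19.9%. These words were counted in the same windows they were chosen from, so their gaps carry no weight. Windows of neighbouring receptor genes were not copies of each other: the longest stretch that any 2 of the 24 windows shared, on either strand, was 12 bases. Every word was sought on both strands. A match describes letters in a window and is not evidence of a bound factor.

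The strongest promoter summits belonged to nhr-68 and nhr-99. Signal values are the authors' own for each peak, on a scale that is not stated, and serve here to rank and describe peaks. The value of each replicate is the highest among the peaks of its own ranked list that overlap the series-wide peak, so neighbouring peaks may share one. At nhr-68 (WBGene00003658; V, 11573440 to 11575709), a regulator of propionate breakdown, the summit lay 348 bp upstream at a series-wide signal of 381, with 177 in replicate 1 and 207 in replicate 2. It ranked 89 of 3559 peaks, and it also lay in the promoter window of H12C20.7, whose 5′ end was nearer. At nhr-99 (WBGene00003689; V, 474778 to 477155) the summit was 86 bp upstream at 304, with 143 and 159.9. These 2 genes stood apart from the rest, since the next promoter signal was 203.

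**Figure D1:**
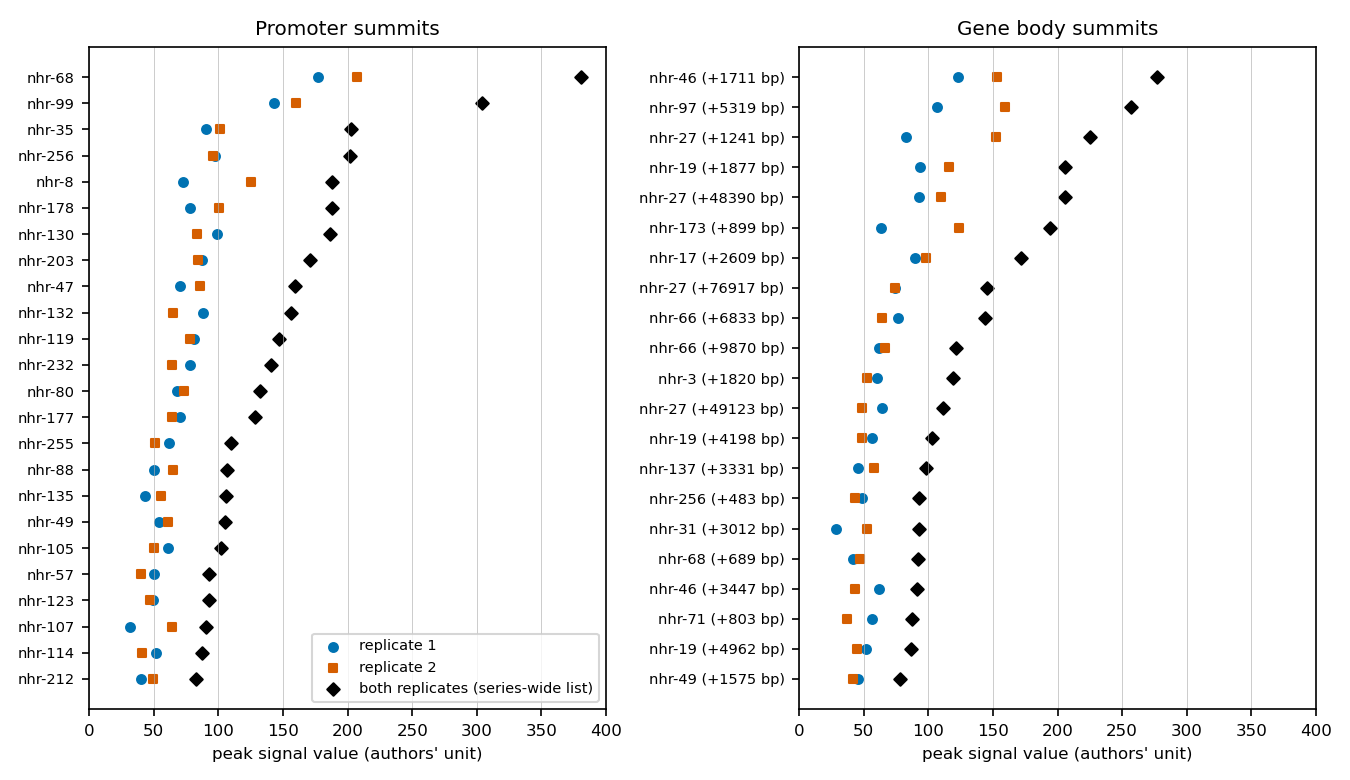
Peak signal value (authors' unit) of every receptor summit, at promoters on the left and in gene bodies on the right with the distance downstream of the 5′ end; circles are replicate 1, squares replicate 2 and diamonds the series-wide list. The promoters of nhr-68 and nhr-99 lead at 381 and 304, and the 2 replicates lie close together for most genes. On this axis they are farthest apart at the nhr-27 summit 1241 bp downstream (82.5 and 152), and by ratio at nhr-107 (31.6 and 64.2).

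Below these, 6 more receptor promoters had signals of 171 to 203, all of them in both replicates' own thresholded lists. At nhr-35 (WBGene00003628; X, 4532691 to 4537546) the summit lay 316 bp upstream at 203, with 90.4 in replicate 1 and 100.8 in replicate 2. At nhr-256 (WBGene00022805; V, 1743771 to 1747981) it lay 107 bp upstream at 202, with 97.0 and 95.9, and a weaker summit of 92.7 stood in an intron. Signals at nhr-178 (WBGene00017510; V, 1603906 to 1607953) were 188 series-wide, 77.8 and 100.3, with the summit 31 bp upstream. These replicate values lie close together and do not order the 3 genes. The gene nhr-8 (WBGene00003607; IV, 7710983 to 7714210), which acts in cholesterol handling and in resistance to toxins, had its summit 50 bp downstream of the 5′ end, in the 5′ UTR, at 188. Its replicates gave 72.6 and 125, farther apart than those of its neighbours in rank. At nhr-130 (WBGene00003720; V, 480814 to 483339) the values were 186 series-wide, 99.1 and 83.7, and at nhr-203 (WBGene00019743; V, 459795 to 461899) they were 171, 87.4 and 84.2.

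The other 16 promoter summits had series-wide signals of 82.7 to 159. In order of signal they belonged to nhr-47, nhr-132, nhr-119, nhr-232, nhr-80, nhr-177, nhr-255, nhr-88, nhr-135, nhr-49, nhr-105, nhr-57, nhr-123, nhr-107, nhr-114 and nhr-212. The summit of nhr-47 (159) was also in the promoter window of dnj-19, and that of nhr-80 (132) in the window of H10E21.1, so that 3 of the 24 promoter summits could belong to another coding gene. The summit of nhr-255 (109.6) lay inside a tRNA gene, WBGene00014626, 530 bp upstream of the receptor gene, and that of nhr-114 inside the coding gene Y45G5AM.9. Assignment to the receptor gene is therefore uncertain for these 5.

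Many receptor promoter summits were present in each replicate taken alone. Of the 24, both thresholded lists of single replicates held 12, that of replicate 1 a further 2 and that of replicate 2 a further 4, which left 6 in neither. Among all 1405 promoter summits 38.9% were in both, and among all 3559 summits 35.3%; the difference was not tested. The list of replicate 2 gave 17 receptor genes with a promoter summit and that of replicate 1 gave 14, with backgrounds of 4.69% and 4.22% of protein-coding genes. In replicate 1 the 24 signals ran from 31.6 to 177 with a median of 70.4, and in replicate 2 from 40.1 to 207 with a median of 65.1. Replicate 2 gave the higher value at 12 of 24. The ratio of replicate 2 to replicate 1 had a median of 1.04 and its range was 0.735 to 2.03, the highest being nhr-107. Over 3493 peaks of the list with a value in both, the median ratio was 1.14.

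In strength, receptor promoters resembled those of other marked genes, and the median distance of their summits from the 5′ end was shorter. The strongest promoter summit per gene had a median signal of 136 over 24 receptor genes (82.7 to 381) and 130.2 over 1563 other genes (2.09 to 935). The median distance from the 5′ end was 161 bp over the receptor genes and 251 bp over the others, and 13 of 24 (54.2%) against 42.7% lay within 200 bp. A summit in the promoter windows of several genes counted for each of them, at its distance from each. Of the 24 summits, 20 lay upstream and 4 in a 5′ UTR (nhr-8, nhr-47, nhr-177 and nhr-232), and the farthest was that of nhr-88 at 960 bp. Because trans-splicing removes the start of many worm transcripts, the annotated 5′ end need not be where transcription begins. These differences were not tested. The median gap to the next coding gene upstream was 1518 bp at the 24 receptor genes with a promoter summit, 1492 bp at the 234 with no summit and 4943 bp at the 11 with a gene body summit only.

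**Figure D2:**
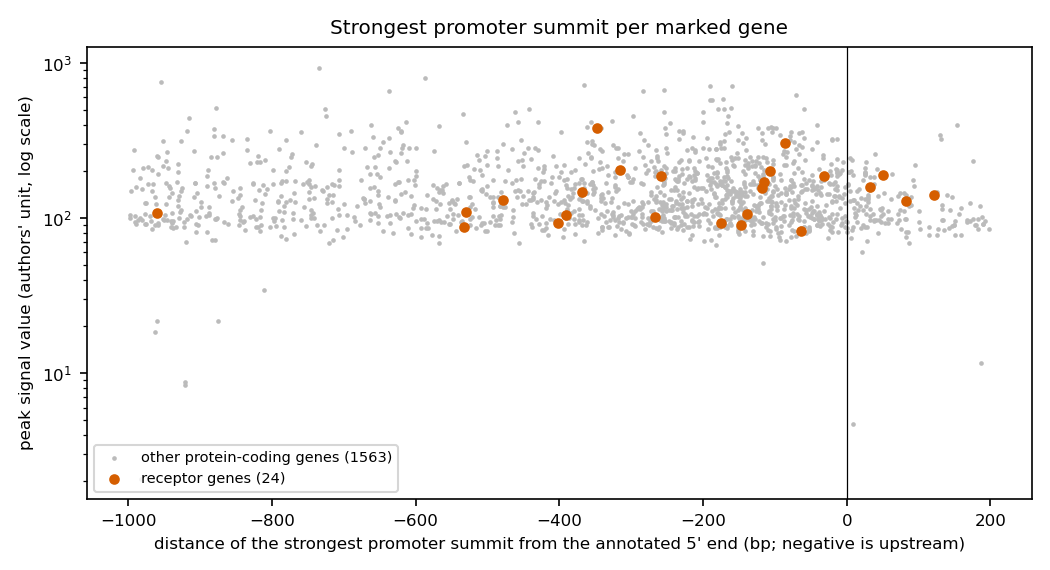
Distance of the strongest promoter summit from the annotated 5′ end (bp, negative upstream) against its signal value (authors' unit, log scale) for 24 receptor genes and 1563 other protein-coding genes. Receptor points run from 960 bp upstream to 122 bp downstream, and 13 of 24 lie within 200 bp of the 5′ end.

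Chromosome V held 167 of the 269 receptor genes (62.1%, against 24.5% of other protein-coding genes), and most of the promoter summits. On V, 16 of 167 receptor genes (9.58%) had a promoter summit, against 6.77% of the other genes of V. The chemoreceptor genes, another family with large arrays on V, had 17 of 890 (1.91%). Without them the other genes of V had 7.87%. Within V the receptor summits were uneven. In the first of 3 equal segments of the chromosome 12 of 78 receptor genes (15.4%, interval 8.21 to 25.3) had one, against 6.50% of other genes there. Of these 12, 5 lay close together, between nhr-123 and nhr-131, whereas the interval treats genes as independent. In the middle segment the count was 4 of 41 (9.76%, against 7.46%). In the last it was 0 of 48 (interval up to 7.40%), against 6.27% of other genes there, which lies inside the interval. By the rule of 3 counts, 0 of 48 allows a share of up to 6.25%, just under that 6.27%. The limits differ on it, so the count does not settle whether the share was lower here. The segments were set after earlier results were known, and no test was made of their difference.

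On the other chromosomes 2 of 15 receptor genes of II had a promoter summit (other genes 8.65%), 1 of 8 of III (8.74%), 2 of 33 of IV (7.33%), 2 of 23 of X (10.1%) and 1 of 23 of I (6.90%). These counts are small and do not set the chromosomes apart.

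Gene body summits were distributed otherwise. None of the 167 receptor genes on V had a gene body summit without a promoter summit, whereas 6 of 23 did on X, 4 of 33 on IV and 1 of 15 on II. Among other protein-coding genes this held for 146 of 4827 on V, 172 of 2708 on X, 126 of 3248 on IV and 110 of 3434 on II. With promoters included, 8 of 23 receptor genes on X had a summit (34.8%, interval 16.4 to 57.3), against 16.5% of other genes of X. That background lies just inside the interval. On V the share stayed at 9.58%, against 9.80% of other genes of V. On IV it was 6 of 33 (other genes 11.2%), on II 3 of 15 (11.9%), on III 1 of 8 (14.5%) and on I 1 of 23 (11.3%). The median length of the 11 receptor genes with a gene body summit only was 6859 bp, against 2210.0 bp for the 234 with none, and a longer gene has more room for a summit. The part of length in this distribution was not tested.

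**Figure D3:**
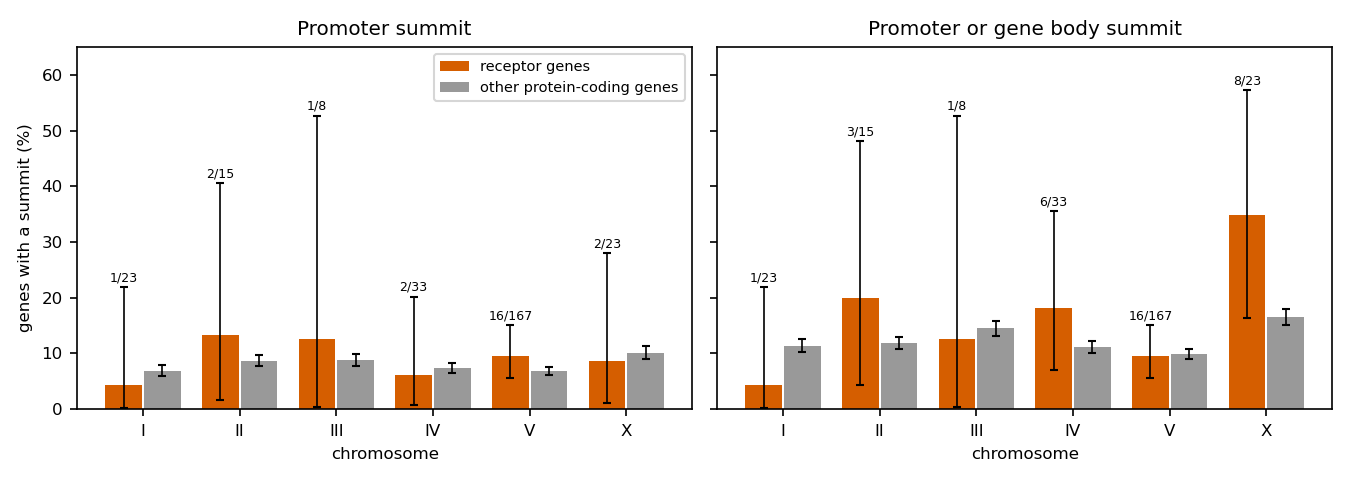
Percentage of receptor genes and of other protein-coding genes with a promoter summit (left) or with a promoter or gene body summit (right), per chromosome; error bars are exact binomial 95% intervals and the labels give marked over all receptor genes. On V the receptor share is 9.58% in both panels, and on X it goes from 8.70% to 34.8% when gene bodies are added. The interval of the latter, from 16.4%, still holds the 16.5% of other genes of X.

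Promoter summits were about as frequent at receptor genes in runs of neighbours as at those outside, but 1 run near the left end of V held several. Runs were defined as 4 or more receptor genes whose 5′ ends follow each other within 25 kb, which gave 15 runs with 102 genes. This was done after positions had been seen. Over all runs 9 genes (8.82%) had a promoter summit, against 7.95% of all protein-coding genes. The run with the most is given first. The run from nhr-123 to nhr-131 (V, 451451 to 497297) had 12 receptor genes in 45.8 kb, and 5 of them had a promoter summit. These were nhr-123 (92.7), nhr-203 (171), nhr-99 (304), nhr-130 (186) and nhr-212 (82.7), while nhr-98, nhr-202, nhr-201, nhr-55, nhr-211, nhr-106 and nhr-131 had none. Each of the 5 summits was in the window of 1 coding gene only, and the 3 other coding genes inside the run had no promoter summit. A run just to the right, from nhr-210 to nhr-155, had 1 marked gene of 4, nhr-132 (WBGene00003722; V, 534446 to 536247), at 156 with 88.4 in replicate 1 and 64.9 in replicate 2.

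The divergently transcribed pair nhr-178 and nhr-177 led another run on V, in which 2 of 7 genes were marked. Their 5′ ends are 2310 bp apart and each had a summit of its own, at 188 for nhr-178 and 128 for nhr-177. In the run from nhr-161 to nhr-42, 1 of 7 was marked, nhr-107. The other 11 runs had none, among them nhr-13 to nhr-96 with 10 genes and nhr-185 to nhr-156 with 10 genes. In all, 9 of 102 receptor genes in runs (8.82%) and 15 of 167 outside runs (8.98%) had a promoter summit, and so did 1 of the 54 other coding genes that lie within runs (1.85%). Near-identical copies can share reads, and how the authors placed such reads is not given in the sources used here.

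**Figure D4:**
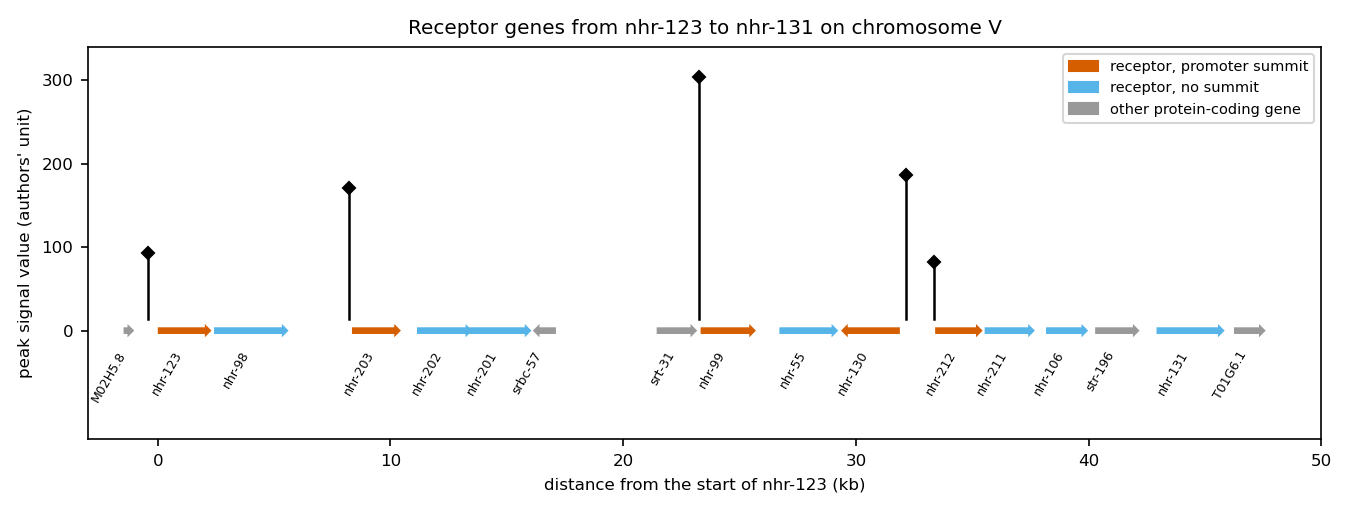
Map of the run from nhr-123 to nhr-131, with distance from the start of nhr-123 in kb and each promoter summit drawn at its signal value (authors' unit); arrows are coding genes, to scale, in the direction of transcription. The 5 summits, at 82.7 to 304, each stand just before the 5′ end of a receptor gene, and the 7 receptor genes without one lie between them or to their right.

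The gene body summits, 21 in all, stood mainly in introns (17 summits, 81.0%). Of the rest, 2 were in 5′ UTRs, 1 in a 3′ UTR and 1 in a coding exon, that of nhr-68 at 92.0. At nhr-46 (WBGene00003636; IV, 5747363 to 5757862) a summit 1711 bp downstream of the 5′ end had a series-wide signal of 277, with 123.3 in replicate 1 and 153 in replicate 2, and a weaker one stood at 91.2. At nhr-97 (WBGene00003687; IV, 9757641 to 9764499) the summit was 5319 bp downstream at 257, with 107 and 159, though the 5′ end of ssp-36 was nearer. Both were above every receptor promoter except those of nhr-68 and nhr-99.

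The long gene nhr-27 (WBGene00008901; X, 12705563 to 12808318) spans 102.8 kb and holds 11 smaller coding genes, among them pgp-12 and cept-1. It had 4 summits. The strongest, at 225 with 82.5 in replicate 1 and 152 in replicate 2, lay 1241 bp downstream of the 5′ end, where gei-3 overlaps it. The others, at 206, 145 and 110.7, were nearest to cept-1 or pgp-12, so they need not belong to nhr-27. At nhr-19 (WBGene00003618; II, 9598180 to 9605526) 3 intronic summits had signals of 206, 103 and 86.2, and the weaker pair was nearer to the 5′ end of mrpl-53. At nhr-173 (WBGene00016975; X, 6655528 to 6660376) the intronic summit had 194, with 63.3 and 124.

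The remaining genes with a gene body summit only were nhr-17 (172, inside a tRNA gene), nhr-66 (144 and 121), nhr-3 (119), nhr-137 (98.1), nhr-31 (92.7) and nhr-71 (87.1). The 5′ end of nlp-76 was nearer to the summit of nhr-17, and that of serp-1.2 to both summits of nhr-66. At nhr-3 the conservative list, the smaller of the series-wide thresholded lists, had a promoter summit as well, 161 bp upstream at 77.7, and the thresholded list of replicate 2 had one at 48.1, also upstream. NHR-66 acts with NHR-49 in lipid metabolism, and NHR-31 acts in the excretory cell. Of the 21 summits, 8 were held by both thresholded lists of single replicates, 5 by that of replicate 1 only, 1 by that of replicate 2 only and 7 by neither. The conservative list held 18, all but those of nhr-31 and nhr-71 and the weaker one of nhr-46. At the promoters it held 23 of 24, all but nhr-107.

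Of receptor genes with known roles, 7 of 13 listed for metabolism and stress and 0 of 8 for development had a summit, against 12.2% of all protein-coding genes. Both lists are short and were written with earlier results of these data known. Of the 13 listed for metabolism and stress, 5 had a promoter summit and 2 a gene body summit only, beside 7.95% and 12.2% of all protein-coding genes with a promoter summit and with either. The promoter summits were those of nhr-68 (381, nearer to H12C20.7), nhr-8 (188), nhr-80 (132, nearer to H10E21.1), nhr-49 (105) and nhr-114 (87.4, inside Y45G5AM.9). Those in gene bodies were at nhr-66 (144, nearer to serp-1.2) and nhr-31 (92.7, not in the conservative list). At nhr-49, an HNF4-like regulator of fat burning and desaturation, replicate 1 gave 54.1 and replicate 2 gave 60.9, with the summit 391 bp upstream and a further intronic summit of 78.4. At nhr-80, which controls fatty acid desaturases, they gave 67.6 and 73.3. At nhr-114, which protects the germ line from harmful diets, they gave 51.6 and 40.7, and neither own list held that peak. The nearest summits to nhr-10, the partner of nhr-68, and to nhr-62, which acts in dietary restriction, lay 25954 and 14446 bp away. That of nhr-69 was 2139 bp upstream at 114.3, that of nhr-86 1344 bp upstream at 100, nearer to lbp-9, that of nhr-76 7008 bp upstream and that of nhr-13 8981 bp downstream.

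The 8 developmental receptor genes had no summit in the promoter or the gene body. They include nhr-23 and nhr-25, which drive moulting and epidermal development, nhr-67, which acts in the anchor cell and the male tail tip, nhr-85, which acts with nhr-23 in the timing of larval stages, and nhr-6, which acts in the spermatheca. Their nearest summits lay 47131 bp from nhr-23, 25528 bp from nhr-25, 9710 bp from nhr-67, 9838 bp from nhr-85 and 43645 bp from nhr-6. The others were 7061 bp from nhr-2, 13187 bp from nhr-40 and 5665 bp from nhr-60. In the ranked lists, nhr-23 (36.3 in replicate 1 and 35.7 in replicate 2) and nhr-40 (32.6 and 47.9) had promoter peaks in both replicates. So did nhr-2 and nhr-85, with lower values. Only replicate 2 had one at nhr-6 and nhr-25, and neither had one at nhr-60 and nhr-67. The count therefore depends on the authors' threshold. A list of 8 genes is too short to set a count of 0 against a background of 12.2%, and the difference between the lists was not tested.

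Of the 11 receptors with a clear relative in insects and vertebrates, 1 had a summit, nhr-8 at its promoter, beside 7.95% of all protein-coding genes with a promoter summit and 12.2% with either. Beside the genes already given, the nearest summits lay 7081 bp upstream of nhr-41, 7875 bp upstream of nhr-48, 41121 bp upstream of nhr-91, 43951 bp downstream of nhr-111 and 24605 bp downstream of nhr-239. In the conservative list, however, nhr-48 had a promoter summit 557 bp upstream at 70.9, with 40.4 in replicate 1 and 46.9 in replicate 2. Receptor genes that bear other names had no promoter summit: of daf-12, unc-55, fax-1, odr-7 and sex-1, only daf-12 had a summit at all, and 5 genes are too few to set against those shares. It encodes the receptor for the steroid-like dafachronic acids that govern dauer formation, and 2 summits lay in its gene body, the stronger 3807 bp downstream of the 5′ end at 158, with 56.1 and 92.3.

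Of genes that work with the receptors, a few coregulators had summits. These lists are short and were written with earlier results known, and over all protein-coding genes 7.95% had a promoter summit and 12.2% a summit in either place. Of 5 genes for ligand synthesis (daf-9, daf-36, hsd-1, dhs-16 and emb-8), none had a summit in either place, and that nearest emb-8 was 1785 bp upstream at 134. Of 4 coregulators, 3 had a promoter summit. They were cbp-1, the worm CBP/p300 acetyltransferase gene (338, with 189.8 in replicate 1 and 167 in replicate 2), din-1, a corepressor of DAF-12 (146, with 86.1 and 60.7), and smo-1, which encodes SUMO (68.9, with 31.7 and 40.5). The coregulator mdt-15, a Mediator subunit that works with NHR-49, had its nearest summit 4521 bp upstream.

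Of 4 targets of NHR-10 and NHR-68 in propionate breakdown, 3 had a promoter summit and 1 a gene body summit, beside 7.95% of all protein-coding genes with a promoter summit and 12.2% with either. At 2 of the 4, hach-1 and acdh-1, the 5′ end of another gene was nearer to the summit. The summit of hphd-1, a transhydrogenase gene of this pathway, lay 175 bp downstream of the 5′ end at 234, with 129 in replicate 1 and 107 in replicate 2. That of hach-1, a hydrolase gene, lay 290 bp upstream at 116 with 51.7 and 69, nearer to nmad-1. That of alh-8, an aldehyde dehydrogenase gene, lay 326 bp upstream at 109.8 with 51.7 and 50.2. The fourth, acdh-1, an acyl-CoA dehydrogenase gene, had one at the end of its gene body, 2090 bp downstream and nearer to C55B7.3. It was weak, at 68.8, with 40.8 in replicate 1 and no overlapping peak in replicate 2. Of 4 targets of NHR-49, acs-2, an acyl-CoA synthetase gene, had a promoter summit (123.3, with 71.2 in replicate 1 and 56 in replicate 2) and the desaturase gene fat-6 a gene body summit (97.5, with 56.1 and 39.0), while fat-5 and fat-7 had none. With 4 genes a list, each gene decides the count.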

How the data were processed

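The authors deposited ranked and thresholded peak lists for each replicate and for the series, on ce11 per the labels. Which aligner and peak caller made them is not given in the sources used here. In the deposited lists each peak has a score that reflects its irreproducible discovery rate (how far paired lists disagree), with a minimum of 830 in the larger thresholded list of the series (3559 peaks), on which the main values rest. The deposited signal value has no stated scale. Thresholded lists of single replicates held 1728 and 2000 peaks. A possible control experiment named in the labels is not analysed here.

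Genes were those of Ensembl release 115, and sequence was that of the RefSeq WBcel235 genome; 0 peaks ran past a chromosome end. Peaks overlapped at 1 bp or more. Intervals on shares are Clopper-Pearson intervals. No test was made: there was 1 group, and members, gene lists, words and alternatives were chosen with earlier results of these data known. The E-box word, the word GCGTCT and the CT repeat word, and likewise the runs and the chemoreceptor comparison, were added after the windows or positions were seen. The rule for named genes took every receptor gene with a summit, with full values for the 8 strongest at promoters and the 5 strongest in gene bodies only, the receptors with relatives in insects and vertebrates, the 5 strongest without a summit and the marked members of the other lists; unmarked members of lists and runs fell outside it, and they were chosen once values had been seen. The assignment of summits to genes was tested on simulated data. Python 3.11.15, numpy 2.4.6, scipy 1.17.1 and matplotlib 3.10.9 were used.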

Additional observations from a re-analysis of the deposited data

How the results depend on the processing

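The count of receptor genes with a promoter summit was 24 and lay between 21 and 32 with the conservative list, with other upstream windows, with the nearest 5′ end only, without peaks of signal under 50 and without summits near tRNA genes. It fell to 14 with peaks above the median signal and ranged from 14 to 17 when 1 replicate was left out. The count with gene bodies, 35, was 21 with peaks above the median signal and 21 to 25 with 1 replicate left out, and within 1.5 times otherwise. The share of all protein-coding genes with a promoter summit moved with the promoter count. It was 4.57% for peaks above the median signal and 4.22% to 4.69% with 1 replicate left out. With 500 and 2000 bp upstream it was 5.93% and 10.9%, and by nearest 5′ end 6.51%. In each of these the receptor share with a promoter summit was higher than that of all genes, by less than 2 percentage points. With gene bodies added it was also higher, least with 2000 bp upstream (15.2% against 14.8%) and most without replicate 1 (9.29% against 7.10%). The median signal, 136, was 132 in the conservative list, 179 above the median signal, 141 without summits near tRNA genes, 147 and 138 with 500 and 2000 bp upstream, 135 by nearest 5′ end, and 83.7 to 84.3 in the lists of single replicates, which mark fewer receptor genes; the cause was not tested. In windows of 100 bp to each side, posterior Hox words were at 45.8% of receptor promoter summits, against 42.8% of all. All receptor names were protein-coding, so other biotypes changed nothing. No paired analysis was possible because there is only 1 group. Depth is unknown and its limits could not be given.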

Other observations

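A minority of receptor genes without a summit had weak promoter peaks in the ranked lists of both replicates, which hold many peaks below the authors' threshold. Of the 234, 72 (30.8%) had a ranked peak in the promoter window in both replicates, against 27.1% of other genes with no summit, and the median of the lower replicate signal was 22.6 in both. The highest by the lower replicate were nhr-48 (40.4 in replicate 1 and 46.9 in replicate 2), nhr-58 (38.9 and 39.9), nhr-56 (40.9 and 36.2), nhr-23 (36.3 and 35.7) and nhr-193 (41.5 and 34.0). These overlap the values at the weakest marked promoters, such as nhr-212 (39.9 and 49.4).

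With 2000 bp upstream, the promoter summit share rose from 8.92% to 11.9% at receptor genes, and from 7.95% to 10.9% at all protein-coding genes. Just outside the promoter window, 8 more receptor genes had a summit between 1000 and 2000 bp upstream. They were nhr-34 (213), nhr-21 (161), nhr-173 (139), nhr-71 (136), nhr-32 (113.8), nhr-86 (100), nhr-42 (90.2, the summit of nhr-107) and nhr-70 (75.1). The gene nhr-34 had 102 in replicate 1 and 109 in replicate 2, 1085 bp upstream, above all but 2 of the receptor promoters. Of the 8, nhr-173 and nhr-71 also had an intronic summit.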
